A study of Mustela putorius furo and Mus musculus with 4 samples.

Results

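The expression of 10 iron genes, chosen by symbol, was compared between 2 libraries of ferret astrocytes and 2 of mouse astrocytes, all from culture. They are Tfrc, Steap3 and Slc11a2 for uptake, Fth1 for storage, Slc40a1, Cp and Heph for export, Aco1 and Ireb2 for iron sensing, and Hmox1 for the release of iron from haem. Of the 10, 8 are among the 13373 gene symbols shared by the species. In the ferret, these 8 had a value, in the mouse all 10 did, and all 8 with values in both species passed the filter on low values described below. Ferret Fth1 and Heph were not analysed here, so both are described in the mouse alone. Every symbol had a single value per library.

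The ferret cells came from the cerebral cortex of P1 pups (Mustela putorius furo) and the mouse cells from that of ICR pups at P1 to P3. Both were grown as mixed glia for 14 days in medium with 10% fetal bovine serum, shaken, and replated as astrocytes. RNA was harvested after a period without serum, in a medium that held added transferrin, the iron carrier of plasma, and N-acetyl cysteine, an antioxidant. No further treatment or genetic change separated the groups, and the species differ in donor pooling, because cells of a ferret pup filled several flasks while several mouse pups shared a flask. The labels do not say whether the duplicates are separate cultures, so that p-values may measure technical spread only. Species, gene annotation and culture cannot be told apart in this design.

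Cells take up iron mainly as transferrin, which is bound by the transferrin receptor and carried into endosomes. There a reductase of the STEAP family turns ferric into ferrous iron, and the transporter DMT1, encoded by Slc11a2, moves it to the cytosol. Iron is stored in ferritin or leaves the cell through ferroportin, encoded by Slc40a1, which works with a ferroxidase such as ceruloplasmin or hephaestin. Astrocytes carry ceruloplasmin as a membrane-anchored form and are known for passing iron between the blood vessels and other brain cells. The iron regulatory proteins IRP1 and IRP2, encoded by Aco1 and Ireb2, bind hairpins called iron-responsive elements when iron is scarce. This binding protects the transferrin receptor mRNA from decay and blocks translation of the ferritin and ferroportin mRNAs, so that mRNA levels alone do not give the protein levels of the latter.

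The hairpins of the mouse genes are shown because they tie uptake, storage and export genes to the same regulators. The annotated mouse UTRs were searched on the sense strand for a 17-base motif, made of an unpaired C, 5 bases of stem, the loop letters CAGTGN, and 5 bases of stem that pair with the first 5, with G to T pairs allowed. Matches were found in 3 of the 10 genes (Fth1, Slc40a1 and Tfrc) and, among 49 other listed iron and haem genes, in Ftl1, the light chain of ferritin. Of all mouse genes with an annotated 5′ UTR, 0.148% held a match there, and 0.614% of those with an annotated 3′ UTR held one there. No match says only that these letters were not in the annotated UTRs. The sequences below are from GENCODE on GRCm38, with the 6 bases of the loop in capitals and 5 bases added at each end of the motif.
Fth1: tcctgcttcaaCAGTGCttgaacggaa
Ftl1: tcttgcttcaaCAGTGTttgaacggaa
Slc40a1: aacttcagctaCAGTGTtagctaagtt
Tfrc-a: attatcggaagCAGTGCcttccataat
Tfrc-b: attatcgggagCAGTGTcttccataat
Tfrc-c: tatatcggagaCAGTGAtctccatatg
Tfrc-d: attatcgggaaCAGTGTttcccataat

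The matches of Fth1 (chr19:9982733-9982759, plus strand), Ftl1 (chr7:45459780-45459806, minus strand) and Slc40a1 (chr1:45925466-45925492, minus strand) were exonic and in the 5′ UTR. The 4 matches of Tfrc were exonic and in the 3′ UTR, on the plus strand, from Tfrc-a to Tfrc-d at chr16:32631220-32631246, chr16:32631599-32631625, chr16:32631664-32631690 and chr16:32631711-32631737. The ferret sequences were not used here.

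The values are FPKM, the count of fragments relative to exon length in kilobases and to all fragments mapped, made by the authors with a separate annotation for each species. The length and completeness of those gene models therefore enter every difference between species, and FPKM does not give the depth of a library. Over the 13373 shared symbols, the ferret libraries had sums of 227391 and 236543 FPKM, and the mouse libraries 300465 and 308122 FPKM. The limma test was run on log2(FPKM + 1) for the 10204 genes whose mean reached 1 FPKM in at least 1 species. A call needed a log2 difference above 1 in size with p under 0.05 after Benjamini-Hochberg adjustment. Over all genes tested, the median log2 difference was -0.35 (ferret minus mouse) with FPKM as deposited and lay between -0.01 and 0.05 after 3 rescalings of the libraries to each other. Of the calls over all genes, 30.3% were higher in ferret with FPKM as deposited and 46.4% to 49.8% after the rescalings. Differences relative to that median are therefore given as well. Of 9 astrocyte markers, all were measured in both species and passed the filter, and Gfap stood between 1429 and 1546 FPKM in the 4 libraries, while 5 of the 9 were called lower and 1 higher in the ferret. Slc1a2, which encodes a glutamate transporter of astrocytes, stood at 0.133 and 0.178 FPKM in the ferret libraries and at 47.1 and 51.8 FPKM in the mouse libraries. On the adjusted p alone, 6 of the 9 were lower and 2 higher. Over all genes, 13.1% were called higher and 30.1% lower, and on the adjusted p alone 32.4% were higher and 56.2% lower. The summed level of the list was 3506 and 3612 FPKM in the ferret and 3096 and 3357 FPKM in the mouse. Most of the ferret sum was Gfap and Aldoc, the latter at 1619 and 1700 FPKM in the ferret and 916 and 1015 FPKM in the mouse. Vim and Apoe, which the study also listed as astrocyte markers with lower values in the ferret, are not in this list.

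Among the 8 iron genes tested, 2 were called higher in ferret astrocytes (Tfrc and Hmox1), 3 were called lower (Cp, Steap3 and Slc11a2) and 3 were not called (Aco1, Slc40a1 and Ireb2). Of all genes tested, 13.1% were called higher and 30.1% lower. The median log2 difference of the 8 genes was -0.54, beside the -0.35 of all genes. After rescaling each library to a larger fixed sum, to the mean of the 4 sums and by quantiles, 3 were called higher (Tfrc, Hmox1 and Aco1) and 1 lower (Cp), where 21.5%, 19.1% and 20.3% of all genes were called higher and 24.9%, 21.7% and 20.5% lower. On the adjusted p alone, Tfrc, Hmox1 and Aco1 were higher and Cp, Steap3, Slc11a2 and Slc40a1 were lower, where 32.4% of all genes were higher and 56.2% lower by that rule. These 3 and 4 genes kept their direction at an adjusted p under 0.05 by limma under each of the 4 scalings, and Ireb2 did not. The share of all genes that did so under all 4 was not computed.

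**Figure D1:**
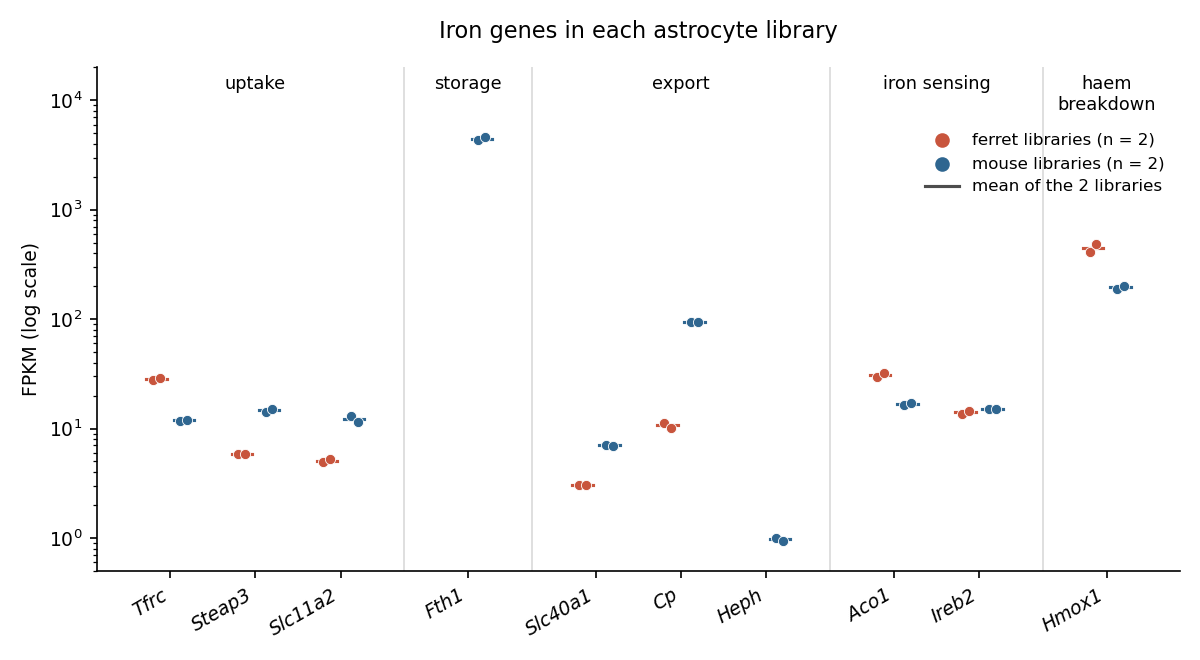
FPKM on a log axis of the 10 iron genes in each library, grouped by role, with a point per library and a short line at the mean of the 2 libraries of a species. Tfrc, Aco1 and Hmox1 were higher in both ferret libraries, Steap3, Slc11a2, Slc40a1 and Cp were higher in both mouse libraries, and Fth1 and Heph have mouse points only. Of all genes tested, 35.1% were higher in both ferret libraries and 59% in both mouse libraries.

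Tfrc, the receptor that brings transferrin into the cell, stood at 28.0 and 28.7 FPKM in the ferret libraries and at 11.7 and 12.0 FPKM in the mouse libraries. The ferret libraries both exceeded the mouse libraries, as for 35.1% of all genes tested. The means differed by 2.39-fold, while duplicates differed by at most 1.03-fold. In log2 terms the difference was 1.19 (standard error, SE, 0.062, limma adjusted p = 3.96e-08), or 1.54 relative to the median of all genes. In the mouse genome (GRCm38) Tfrc spans chr16:32608920-32632794 on the plus strand.

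The 2 endosomal steps after the receptor went the other way. Steap3, a reductase that turns ferric into ferrous iron, stood at 5.89 FPKM in each ferret library and at 14.3 and 15.0 FPKM in the mouse libraries. Slc11a2, the ferrous iron transporter DMT1, stood at 4.94 and 5.24 FPKM in the ferret and at 13.1 and 11.4 FPKM in the mouse libraries. For both genes each ferret library was below each mouse library, and the mouse duplicates of Slc11a2 differed more (1.15-fold) than those of any other gene of the 10 in the mouse. The log2 differences were -1.18 for Steap3 (SE 0.068, limma adjusted p = 8.97e-08) and -1.12 for Slc11a2 (SE 0.082, limma adjusted p = 5.34e-07). Relative to the median of all genes they were -0.83 and -0.77. Both calls were lost under each rescaling of the libraries, with log2 differences from -0.89 to -0.77 for Steap3 and from -0.84 to -0.71 for Slc11a2, since the size then fell short of 1 while the adjusted p by limma stayed at 0.000134 or lower. Slc11a2 makes several mRNA forms, which FPKM per gene does not separate. Mouse Steap3 spans chr1:120190757-120272705 and Slc11a2 chr15:100387898-100425072, both on the minus strand.

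Within a library, Tfrc stood at 5.67 and 5.48 times the FPKM of Slc11a2 in the ferret and at 0.895 and 1.05 times in the mouse. The receptor was thus several times the level of the transporter in ferret libraries and close to it in mouse libraries. This ratio was chosen after the values were seen.

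Fth1, the heavy chain of ferritin with the ferroxidase activity of the storage shell, was the highest of the 10 genes in the mouse, at 4334 and 4583 FPKM. Ftl1, the light chain of ferritin, stood at 1747 and 1833 FPKM in the same libraries. The heavy chain was 2.48 and 2.50 times the light chain in FPKM. Fth1 was 370.4 and 381 times Tfrc within the mouse libraries. Ferritin genes have near-identical pseudogene copies, and reads could be split among them, as Ftl1-ps1 was given 128 and 126 FPKM in the mouse libraries. Mouse Fth1 spans chr19:9980598-9985098 on the plus strand. The light chain of the ferret was not analysed here.

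Slc40a1, the iron exporter ferroportin, stood at 3.06 and 3.03 FPKM in the ferret libraries and at 7.15 and 6.98 FPKM in the mouse libraries. Both ferret libraries were below both mouse libraries, as for 59% of all genes tested, and the mouse mean was 2.32-fold the ferret mean. The log2 difference of -0.99 (SE 0.072, limma adjusted p = 5.06e-07) fell just short of the size required for a call, and was -0.65 relative to the median of all genes. It was -1.01 without mouse replicate 2 and -1.19 with a pseudocount of 0.1 in place of 1, and the gene was called lower in both cases. On the other side, it ranged from -0.78 to -0.58 under the rescalings. Mouse Slc40a1 spans chr1:45908068-45926523 on the minus strand.

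Cp, which encodes the ferroxidase ceruloplasmin, differed most of the 8 genes. It stood at 11.2 and 10.2 FPKM in the ferret libraries and at 94.3 and 93.6 FPKM in the mouse libraries, an 8.77-fold difference between the means, where ferret duplicates differed by 1.10-fold. In log2 terms the difference was -3.02 (SE 0.065, limma adjusted p = 1.23e-10), or -2.67 relative to the median of all genes. It stayed between -3.02 and -2.64 under the 4 scalings. The secreted and the membrane-anchored forms of ceruloplasmin come from the same gene and are not separated by FPKM per gene. Mouse Cp spans chr3:19957054-20009145 on the plus strand.

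Heph, which encodes the related ferroxidase hephaestin, was the lowest of the 10 genes in the mouse, at 0.999 and 0.946 FPKM. Cp was 94.3 and 98.99 times Heph within the mouse libraries. Mouse Heph spans chrX:96455359-96574485 on the plus strand. Against its partner Slc40a1, Cp stood at 3.67 and 3.36 times in the ferret and at 13.2 and 13.4 times in the mouse libraries, a difference between species of -1.92 in the log2 ratio (SD within species 0.066). That ratio was also chosen after the values were seen. Its two-sided exact permutation p, and that of Tfrc to Slc11a2, was 0.333, the smallest that these libraries allow.

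**Figure D2:**
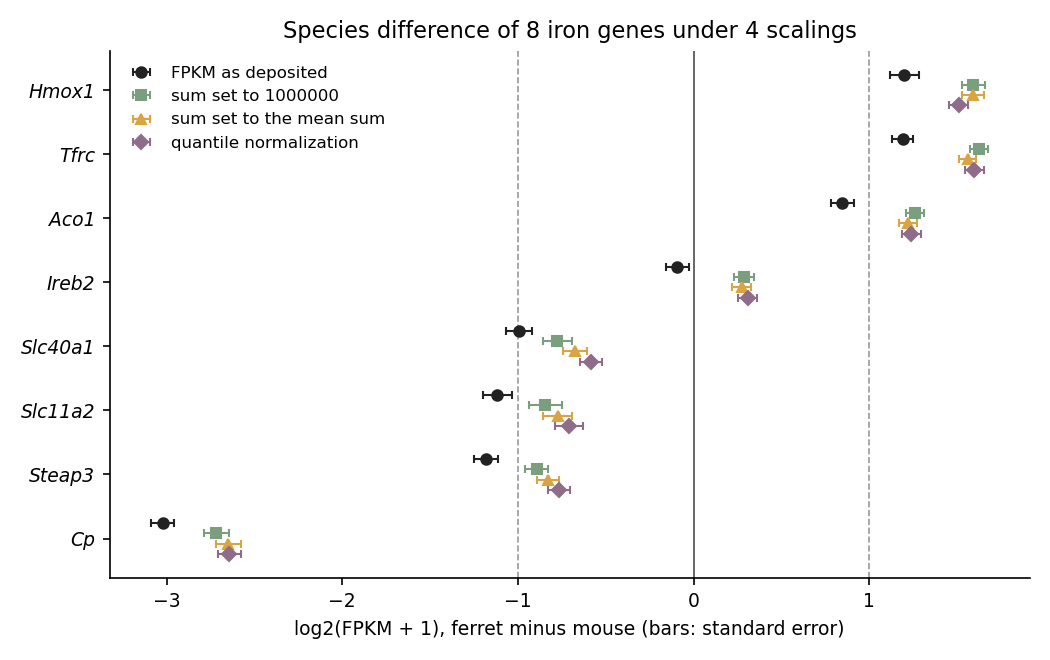
Difference between ferret and mouse in log2(FPKM + 1) with its standard error for the 8 iron genes with values in both species, with FPKM as deposited and after 3 rescalings of the 4 libraries, and dashed lines at the size of 1 required for a call. Cp stays between -3.02 and -2.64, Tfrc and Hmox1 stay above 1, Steap3 and Slc11a2 move inside the line after rescaling, Aco1 moves outside it, and Ireb2 crosses 0.

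Aco1 encodes IRP1, which is a cytosolic aconitase when it holds an iron-sulfur cluster and binds RNA when it does not. It stood at 29.8 and 32.3 FPKM in the ferret libraries and at 16.6 and 17.1 FPKM in the mouse libraries. The ferret libraries both exceeded the mouse libraries, by 1.84-fold between the means. In log2 terms the difference was 0.85 (SE 0.066, limma adjusted p = 8.38e-07), under the size required for a call, and 1.19 relative to the median of all genes. Under the rescalings it was 1.22 to 1.26 and the gene was called higher. Mouse Aco1 spans chr4:40143081-40198338 on the plus strand.

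Ireb2 encodes IRP2, which has no aconitase activity and is broken down when iron is plentiful. It stood at 13.7 and 14.4 FPKM in the ferret libraries and at 15.1 and 15.0 FPKM in the mouse libraries. Both ferret libraries were slightly below both mouse libraries, a pattern that 59% of all genes tested showed. The log2 difference of -0.09 (SE 0.064, limma adjusted p = 0.196) did not pass the test, and its sign turned under the rescalings, with log2 differences of 0.27 to 0.31 and adjusted p values of 0.00251 or lower by limma. Its difference relative to the median of all genes was 0.26. Mouse Ireb2 spans chr9:54863789-54912530 on the plus strand.

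A ratio within a library is not changed by a scaling factor for the whole library. Aco1 stood at 2.18 and 2.25 times Ireb2 in the ferret libraries and at 1.10 and 1.14 times in the mouse libraries. The difference in the log2 ratio was 0.98 (SD within species 0.034). Tfrc stood at 9.14 and 9.47 times Slc40a1 in the ferret libraries and at 1.64 and 1.72 times in the mouse libraries, a 5.54-fold difference between species in the ratio of the importer to the exporter. The difference in the log2 ratio was 2.47 (SD within species 0.044). For both ratios the 2 groups did not overlap, and the two-sided exact permutation p was 0.333, the smallest that 2 libraries against 2 can give. Among single genes tested, 35.1% were higher in both ferret libraries and 59% in both mouse libraries. The share over other gene pairs was not computed. These ratios still hold the lengths of the gene models of each species.

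**Figure D3:**
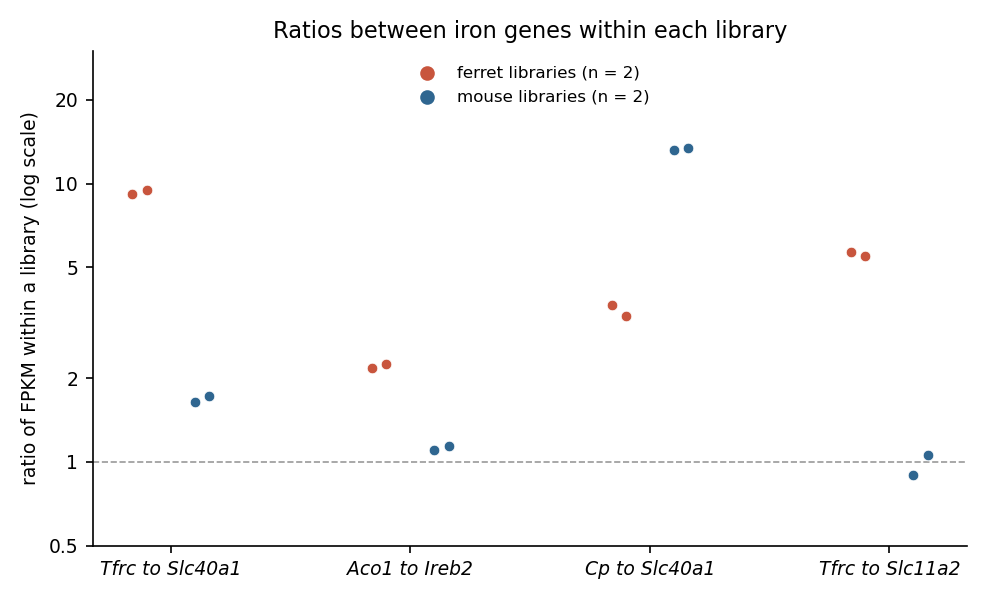
Ratio of FPKM between pairs of iron genes within each library on a log axis, with a point per library and a dashed line at equal FPKM. Ferret libraries lie higher for Tfrc to Slc40a1, Aco1 to Ireb2 and Tfrc to Slc11a2, and mouse libraries lie higher for Cp to Slc40a1.

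Hmox1 encodes haem oxygenase 1, the stress-inducible enzyme that opens haem and frees its iron. It stood at 411 and 488 FPKM in the ferret libraries and at 189 and 200.1 FPKM in the mouse libraries. The ferret duplicates differed by 1.19-fold, the widest gap between duplicates among the 10 genes, and both were still above both mouse libraries, by 2.31-fold between the means. In log2 terms the difference was 1.20 (SE 0.083, limma adjusted p = 3.41e-07), or 1.55 relative to the median of all genes, and it ranged from 1.20 to 1.59 under the 4 scalings. Mouse Hmox1 spans chr8:75093621-75100589 on the plus strand.

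The order of the levels differed between species among the 8 genes with values in both, of which Hmox1 was highest in each species. Fth1 and Heph have mouse values only and are ranked in the mouse alone. In ferret libraries Hmox1 was highest, followed by Aco1, Tfrc, Ireb2, Cp, Steap3, Slc11a2 and Slc40a1, and no neighbours in this order overlapped between duplicates. In mouse libraries Fth1 was highest, followed by Hmox1, Cp, Aco1, Ireb2, Steap3, Slc11a2, Tfrc, Slc40a1 and Heph, and the values of Slc11a2 and Tfrc overlapped, while Ireb2 and Steap3 were closer to each other than the Steap3 duplicates were. In a ranking of the 13373 shared symbols within each library, Tfrc reached percentile 87.0 in both ferret libraries and percentiles 62.9 and 63.2 in the mouse libraries. Cp reached percentiles 69.5 and 66.6 in the ferret and 96.1 and 95.8 in the mouse. Hmox1 was at percentile 98.5 or above in all 4 libraries. Slc40a1 was at percentile 42.8 in both ferret libraries and at 51.8 and 51.0 in the mouse libraries.

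The rest of the pathway was described from 6 lists with 48 genes, of which 40 were measured in both species and 35 passed the filter. Of these 35, 4 were called higher and 13 lower in ferret astrocytes, beside 13.1% and 30.1% of all genes, with a median log2 difference of -0.15. Under the rescalings, 7 to 8 of them were called higher and 10 to 12 lower. Of all genes, 19.1% to 21.5% were then called higher and 20.5% to 24.9% lower.

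**Figure D4:**
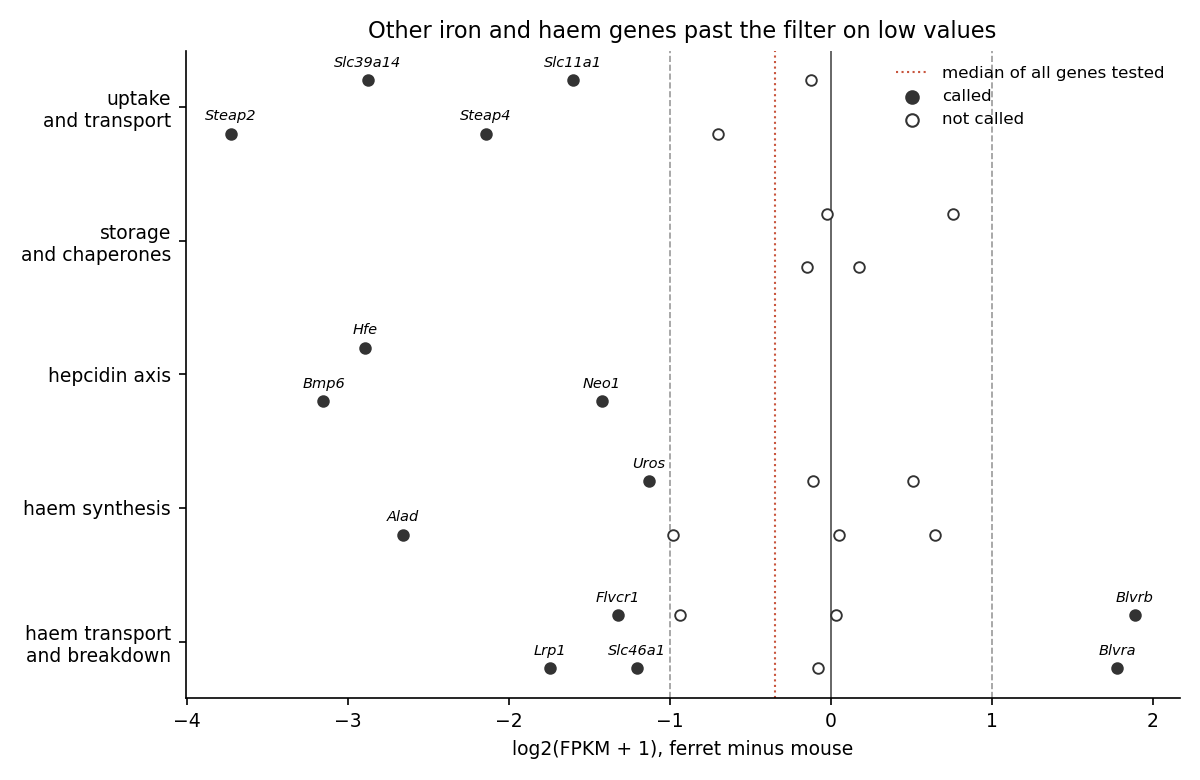
Difference between ferret and mouse in log2(FPKM + 1) of 28 other iron and haem genes that passed the filter, in 5 of the 6 lists (the mitochondrial list is not plotted), with filled points and names for called genes, dashed lines at the size required for a call and a dotted line at the median of all genes. The uptake and hepcidin lists hold calls on the lower side, and the biliverdin reductases Blvra and Blvrb lie on the higher side.

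Among other uptake and transport genes, 0 of the 6 tested were called higher and 4 lower (Steap2, Slc39a14, Steap4 and Slc11a1). The shares over all genes tested were 13.1% and 30.1%. Steap2, a metalloreductase related to Steap3, stood at 0.621 and 0.559 FPKM in the ferret libraries and at 19.97 and 20.07 FPKM in the mouse, which is -3.73 as a log2 difference (limma adjusted p = 7.6e-11). Slc39a14, which encodes the transporter ZIP14 for iron that is not bound to transferrin, stood at 2.56 and 2.53 FPKM in the ferret and at 23.9 and 26.1 FPKM in the mouse libraries. Slc11a1, a transporter of macrophage phagosomes, stood at 2.93 and 3.76 FPKM in the ferret and at 13.2 and 11.1 FPKM in the mouse libraries. Transferrin itself is named TF in the ferret and Trf in the mouse, and stood at 3.48 and 3.66 FPKM in the ferret and at 21.1 and 24.4 FPKM in the mouse libraries. This pair was matched by hand and was not tested.

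Of the storage and chaperone genes, 4 were tested and 0 were called in either direction, and 2 of the 4 were higher on the adjusted p alone. Among all genes, 13.1% were called higher and 30.1% lower, and 32.4% were higher on the adjusted p alone. Ncoa4, the receptor that delivers ferritin to lysosomes, stood at 53.7 and 56.0 FPKM in the ferret and at 55.4 and 55.9 FPKM in the mouse libraries, with overlapping groups. Its log2 difference was -0.02 (limma adjusted p = 0.722). Pcbp1, a chaperone that hands iron to ferritin, stood at 122 and 128 FPKM in the ferret and at 72.4 and 74.5 FPKM in the mouse, which is 0.76 as a log2 difference. Of the hepcidin axis, through which the body sets ferroportin levels, 3 genes were tested and all 3 were called lower (Bmp6, Hfe and Neo1). The list holds 6 genes, and 30.1% of all genes tested were called lower. Bmp6, a ligand that induces hepcidin in the liver, stood at 2.12 and 1.57 FPKM in the ferret and at 24.6 and 23.6 FPKM in the mouse, which is -3.15 as a log2 difference (limma adjusted p = 9.86e-10). Hamp, which encodes hepcidin, is listed at 0 in both mouse libraries.

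Mitochondrial iron and iron-sulfur cluster genes went both ways, with 2 called higher, 1 called lower and 4 not called of 7 tested. Over all genes, 13.1% were called higher and 30.1% lower. Iscu, the scaffold on which clusters are assembled, stood at 13.2 and 13.9 FPKM in the ferret and at 68.9 and 70.9 FPKM in the mouse, which is -2.29 as a log2 difference (limma adjusted p = 4.14e-10).

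Haem synthesis genes had 0 called higher and 2 called lower (Alad and Uros) of 7 tested, beside 13.1% and 30.1% of all genes. Uros, an enzyme of a later cytosolic step, lost its call under all 3 rescalings, with log2 differences from -0.88 to -0.72 in place of -1.13. Alad, the enzyme of the cytosolic step that makes porphobilinogen, stood at 1.43 and 1.72 FPKM in the ferret and at 14.2 and 16.2 FPKM in the mouse, which is -2.66 as a log2 difference (limma adjusted p = 2.09e-09). Alas1, the rate-limiting enzyme of the pathway outside red cells, had a log2 difference of -0.11 (limma adjusted p = 0.209), from 72.6 and 85.2 FPKM in the ferret and 83.2 and 86.7 FPKM in the mouse libraries.

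Haem transport and breakdown genes had 2 called higher and 3 called lower of 8 tested, beside 13.1% and 30.1% of all genes. Both called higher were the biliverdin reductases. Blvrb stood at 90.9 and 101 FPKM in the ferret and at 25.59 and 24.96 FPKM in the mouse, which is 1.89 as a log2 difference (limma adjusted p = 2.83e-09). Blvra stood at 67.4 and 79.2 FPKM in the ferret and at 21.1 and 20.1 FPKM in the mouse, which is 1.78 as a log2 difference. Hmox2, the constitutive haem oxygenase, had 25.5 and 28.4 FPKM in the ferret and 25.8 and 26.8 FPKM in the mouse libraries, with overlapping groups and a log2 difference of 0.03 (limma adjusted p = 0.669). The 3 called lower were Lrp1, a receptor that also takes up haem bound to haemopexin, and the transporters Flvcr1 and Slc46a1. Both transporters lost the call under quantile normalization, Slc46a1 also after rescaling to the mean of the 4 sums. Lrp1 stood at 22.9 and 22.8 FPKM in the ferret and at 81.4 and 76.7 FPKM in the mouse, which is -1.74 as a log2 difference (limma adjusted p = 2.11e-09).

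Markers of other cells also differed between the species, where 13.1% of all genes tested were called higher in the ferret and 30.1% lower. All 14 microglial markers tested, of 15 listed, were lower in ferret libraries, where the 14 summed to 7.57 and 7.18 FPKM against 858 and 831 FPKM in the mouse libraries, and Cx3cr1 is listed at 0 in both ferret libraries. Microglia also express Slc40a1, Slc11a1 and Hmox1. Of 10 meningeal fibroblast markers, 9 were called lower in the ferret, with sums of 187 and 165 FPKM in the ferret and 2020 and 1974 FPKM in the mouse libraries. Oligodendrocytes are known for transferrin, hephaestin and ferritin, and of 10 markers of that lineage 7 were tested, 3 of them called higher in the ferret and 0 lower. On the adjusted p alone, 5 of the 7 were higher and 2, Olig2 and Cspg4, were lower. By that rule 32.4% of all genes were higher and 56.2% lower. The 9 markers shared by the species summed to 166 and 185 FPKM in the ferret and 67.8 and 68.3 FPKM in the mouse libraries, and these sums leave out Olig1, which stood at 107 and 117 FPKM in the mouse and was not analysed in the ferret. Endothelial markers, of which 2 of 7 were tested and both called lower, summed to 0.762 and 0.720 FPKM in the ferret, against 25.3 and 25.8 FPKM in the mouse. Most of the mouse sum was Cdh5 alone, at 22.0 and 22.5 FPKM. Pecam1 stood at 0.041 and 0.031 FPKM in the mouse, and the mean of Vwf was higher in the ferret (0.234 against 0.133 FPKM). Pecam1, Cdh5 and Tek of the endothelial list are at 0 in both ferret libraries and Cldn5 in both mouse libraries. The 6 neuron markers shared by the species, of 8 listed, summed to 28.6 and 28.4 FPKM in the ferret, against 34.0 and 35.2 FPKM in the mouse, with 2 of 4 tested called higher in the ferret. These sums leave out Stmn2, which stood at 124 and 127 FPKM in the mouse and was not analysed in the ferret. By immunostaining of cultures kept in serum, the study counted mostly astrocytes in both species. The share of microglia was larger in the mouse, and neurons were counted in the ferret alone. In the RNA of these whole cultures, fewer cells of a type, less RNA per cell and the separate gene models cannot be told apart. The part of these cells in the levels of the iron genes was not tested.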

How the data were processed

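RNA of cultured ferret and mouse astrocytes was sequenced as polyA-selected, stranded libraries, 2 per species. The authors aligned reads with STAR 2.7.0f and the deposited values are FPKM made with Cufflinks 2.2.1 on Ensembl gene models, of GRCm38 for the mouse and of the ferret genome for the ferret. Each library has its own values. FPKM alone give no depth, and read counts were not used here.

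Symbols were matched without regard to case, and for symbols with several values the highest mean was taken. limma (3.58.1, R 4.3.3, empirical Bayes with a trend) was fitted to log2(FPKM + 1), after genes whose mean stayed under 1 FPKM in both species were left out, with no block. This scale understates the fold change of weakly expressed genes. The fit was tested on simulated data with independent noise and few changed genes. That setting is unlike these data, where most genes differed between species, so it does not test the species comparison. Single ratios were compared by exact permutation (scipy 1.17.1). Libraries were grouped by their titles, which carry the replicate numbers. The correlation across 10204 genes between replicate 1 minus replicate 2 in the ferret and in the mouse was 0.0099, and the species do not share animals. Alternatives were a pseudocount of 0.1, no filter, scalings, row choices, no trend, a replicate block and each library left out.

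The members and lists were chosen with earlier results of these data known. The text names all members, the called gene with the largest difference in each direction of each wider list, ferritin light chain and transferrin. Other genes of the lists were named after their values were seen. The genes called higher in the mitochondrial list are counted but not reported here by name. Mouse coordinates and UTRs are those of GENCODE M21 on GRCm38. A ferret genome was not used here.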

Additional observations from a re-analysis of the deposited data

How the results depend on the processing

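The values are from 2 libraries a species, and FPKM alone give no depth. Rescaling libraries moved most. With FPKM rescaled to a larger fixed sum, to the mean of the 4 library sums and by quantile normalization, iron genes called lower in ferret were 1, 1 and 1 in place of 3, other iron genes called higher were 8, 7 and 7 in place of 4, and the median log2 difference of the iron genes was -0.24, -0.20 and -0.14 in place of -0.54. All genes called higher were 2197 and 2076 under the fixed sum and the quantiles, in place of 1336. Ireb2 turned sign under all 3, to 0.29, 0.27 and 0.31. A pseudocount of 0.1 gave a median of -0.64. A pseudocount of 1 in the ratio gave 2.18 for Tfrc to Slc40a1 and 0.94 for Aco1 to Ireb2 (log2), and quantile normalization gave 2.40 for the former. The row choice for symbols, the absence of a filter and the absence of a trend moved no count of iron genes called.

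With each library left out in turn, a fit in which the lone library of a species is assumed to vary like the others, iron genes called higher stayed at 2 and those called lower were 3 to 4. The replicate block gave 2 higher and 3 lower, with 4 and 13 among the other iron genes and 1342 and 3072 among all genes, and it changed no call among these iron genes. The ratios of Fth1 to Tfrc and of Cp to Heph were planned and could not be compared, since ferret Fth1 and Heph were not analysed here.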
